A study of Mus musculus with 2 samples.

Results

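Binding of FLAG-tagged HLF was examined at 9 genes of Notch signalling and the T lineage, the receptors Notch1, Notch2, Notch3 and Notch4, the DNA-binding partner Rbpj, the target Hes1, and the lineage factors Gata3, Tcf7 and Zbtb16. A peak was counted for a gene when its centre lay inside the gene or within 100 kb of either end. By this rule 11 of the 3153 peaks of the FLAG-HLF library belonged to the 9 genes. The peaks were selected on their measured positions, and the genes were picked with earlier results known, so the counts and distances are descriptions without a test.

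The series held 2 arms of wild-type LSK cells, mouse hematopoietic stem and progenitor cells without lineage markers that carry Sca-1 and c-Kit. The FLAG-HLF arm received a pMX retrovirus with 3xFLAG-tagged Hlf and an IRES-GFP, and the GFP-ctrl arm a pMX-GFP virus. In each arm 80000 cells were infected, kept for 5 days in OP9 medium with SCF at 50, IL-7 and Flt3L at 10 each and IL-3 at 5 ng/ml, fixed with 1% formaldehyde and precipitated with an anti-FLAG antibody. There was 1 library per arm, the peak list of FLAG-HLF was the only one analysed, and no value has a replicate check. The tagged factor came from a virus, so the peaks are those of introduced and not of endogenous HLF, and no expression values were analysed that could check the LSK label after culture.

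HLF is a PAR bZIP transcription factor, active in hematopoietic stem cells. Notch receptors are cell surface proteins that are cleaved when a Delta or Jagged ligand on a neighbouring cell binds them, and the freed intracellular part joins RBPJ on DNA, with a Mastermind coactivator, to switch on genes such as Hes1. In lymphoid progenitors that reach the thymus, Notch1 signalling starts the T cell programme, in which Tcf7 (encoding TCF-1) and Gata3 are early and essential factors. Zbtb16 encodes PLZF, a zinc finger factor of natural killer T cells and innate lymphoid precursors. Notch2 is best known in lymphocytes for its need in marginal zone B cells.

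The sequences below are those from which distances to the Notch1, Notch2 and Gata3 transcription starts were measured, and they show what the peaks did not cover. Each is the 250 bases before the start, 5′ to 3′ on the gene's strand, from RefSeq (GRCm38.p6). For Gata3 the start used, at 9878600, lies inside the gene bounds, which reach upstream to 9887953, so its stretch is within the annotated gene. Capitals would mark any of the 17 short words searched for, and these 3 stretches hold none.
Notch2, chr3:98013288-98013537, plus strand: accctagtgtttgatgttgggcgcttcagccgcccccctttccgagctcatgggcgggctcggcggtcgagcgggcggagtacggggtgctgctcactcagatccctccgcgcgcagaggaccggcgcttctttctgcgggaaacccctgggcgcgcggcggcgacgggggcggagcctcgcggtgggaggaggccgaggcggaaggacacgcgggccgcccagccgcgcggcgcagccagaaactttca
Notch1, chr2:26503823-26504072, minus strand: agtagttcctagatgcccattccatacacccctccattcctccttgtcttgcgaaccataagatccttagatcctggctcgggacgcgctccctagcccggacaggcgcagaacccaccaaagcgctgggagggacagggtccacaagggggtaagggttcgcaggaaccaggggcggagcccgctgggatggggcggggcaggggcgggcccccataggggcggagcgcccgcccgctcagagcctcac
Gata3, chr2:9878601-9878850, minus strand: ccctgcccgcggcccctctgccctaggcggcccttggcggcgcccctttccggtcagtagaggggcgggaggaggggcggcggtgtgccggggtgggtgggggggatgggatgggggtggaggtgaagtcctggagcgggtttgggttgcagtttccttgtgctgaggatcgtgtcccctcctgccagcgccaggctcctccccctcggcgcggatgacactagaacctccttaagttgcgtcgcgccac

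None of the 11 peaks overlapped a promoter window (250 bases before to 50 after a start) of any gene in the RefSeq table. Such overlap was rare over the whole list, with 227 of all 32851 windows (214 genes) under any of the 3153 peaks. The share of all peaks that overlapped a window was not counted, so the 0 is not read as a trait of these genes. The table had windows for 7 of the 9 genes, and Hes1 and Zbtb16 are placed by their gene ends alone. Of the 11 peaks, 5 lay inside a member gene, 2 inside another coding gene and 4 outside all coding genes. Exons and introns were not told apart, since the annotation used gives gene bounds only. The nearest of the measured transcription starts of the members was 17.8 kb away, at Notch2.

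The peaks fell at 4 of the 9 genes (44.4%), Notch2 with 5 and Notch1, Gata3 and Zbtb16 with 2 each, and the other 5 genes had 0. Over all 21887 placed coding genes, 36.3% had at least 1 peak by the same rule, so at this limit the share of members with a peak is near the background. The median was 0 peaks per gene both over the 9 members and over all coding genes. A peak inside the gene was found at 3 of the 9 members, against 6.83% of all coding genes. The members' windows together spanned 2.41 Mb and held 4.57 peaks per Mb, compared with 2.18 peaks per Mb summed over the windows of all coding genes. Notch2 supplied 5 of the 11 peaks. With a limit of 20 kb, 3 of the 9 genes had a peak, against 15.1% of all coding genes. It was also 3 of the 9 at 50 kb, against 24.2%, and 8 of the 9 at 200 kb, against 51.8%. The rule used these positions, so no more is read from the counts.

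**Figure D1:**
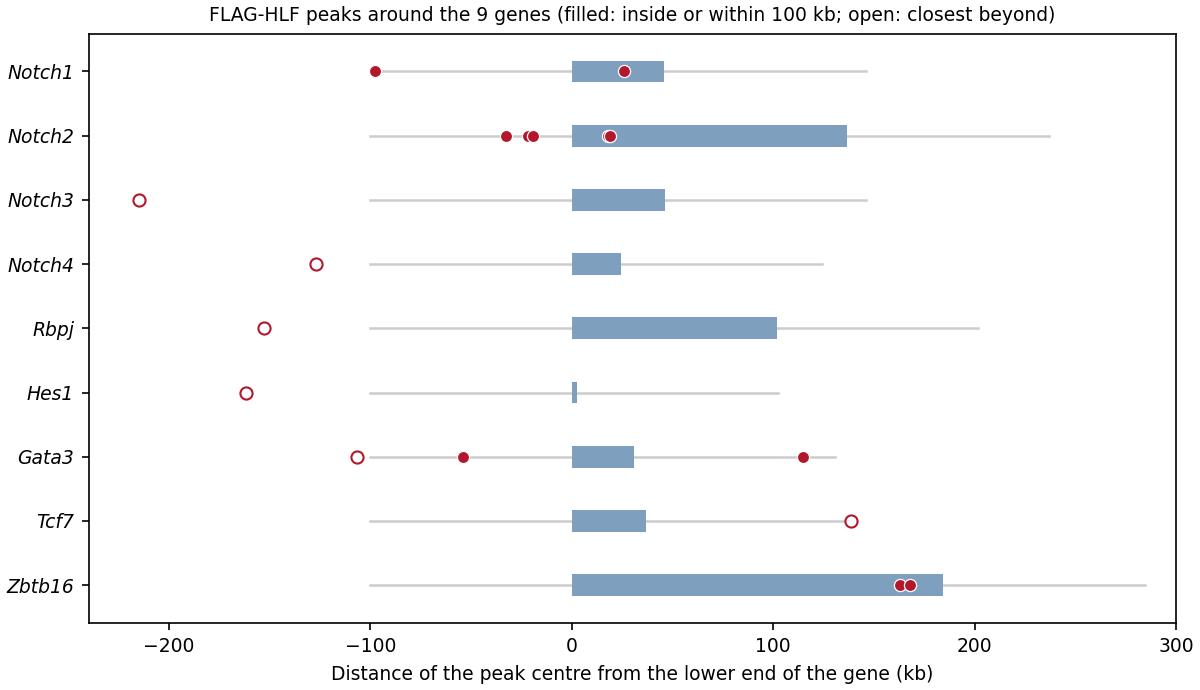
Peak centres around each of the 9 genes, in kb from the gene's lower end (the end with the smaller coordinate). Blue bars are gene bodies, grey lines the 100 kb on each side, filled points the 11 counted peaks and open points the closest peak beyond 100 kb where it lies within the plotted range; Notch2 has 5 filled points, of which the 2 inside the gene nearly coincide, and Notch3, Notch4, Rbpj, Hes1 and Tcf7 have none.

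Notch2 (chr3:98013538-98150367, 136.8 kb, plus strand) had the most peaks of the 9 genes. The first, chr3:97980846-97981245, was centred 32.5 kb before the transcription start, in the stretch between the predicted coding gene Gm5544 and Notch2, and was closer to Gm5544 (14.0 kb) than to Notch2. The next, chr3:97991444-97991843, lay 21.9 kb before the start, and its neighbour, chr3:97993882-97994281, lay 19.5 kb before it. These upstream peaks were in no coding gene. The remaining peaks were inside Notch2, chr3:98031119-98031518 at 17.8 kb and chr3:98032235-98032634 at 18.9 kb after the start. Both sat in the first part of the gene, at 13.0% and 13.8% of its length. Notch2 therefore had peaks on both sides of its start, at 17.8 to 32.5 kb, and none in the promoter printed above or in the rest of the gene body. The long noncoding RNA gene Gm40103 lies inside Notch2, and its own annotated start was 5.21 kb from the nearer of the inside peaks, closer than the Notch2 start. By nearest coding gene end, Notch2 took 4 of the 5 peaks. When noncoding genes also competed it took 2, as the peaks inside Notch2 were then nearer to Gm40103.

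**Figure D2:**
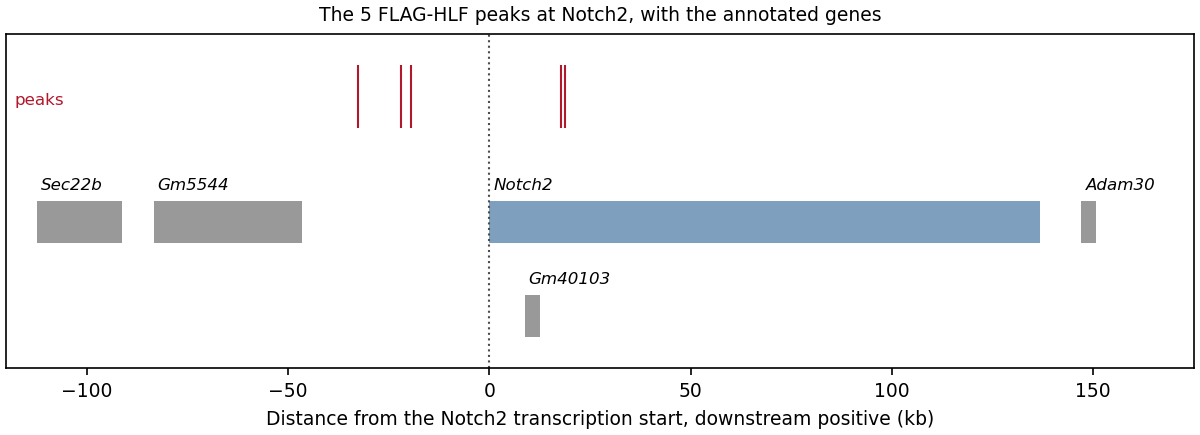
The 5 peak centres at Notch2 (red lines) in kb from the Notch2 transcription start, downstream positive, above the annotated coding genes and, in the lower row, the long noncoding RNA gene Gm40103. There are 3 peaks upstream, at -32.5, -21.9 and -19.5 kb, and 2 inside the gene, at 17.8 and 18.9 kb.

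The Notch2 peaks were close together. Within the locus, neighbouring centres were 10.6, 2.44, 37.2 and 1.12 kb apart, so the peaks formed a near pair on each side of the start and a single peak farther upstream. All 5 fitted into 51.4 kb. Of the 3073 runs of 5 neighbouring peaks on a chromosome in the whole list, 2 were that short (0.0651%), the one at Notch2 and a run of 45.9 kb inside M1ap, a gene named for its role in meiosis. The median run spanned 2034.9 kb. Spacings of 2.44 kb or less were found for 69 of the 3133 neighbouring pairs (2.2%), and Notch2 held 2 of them. A window count of 5 or more was reached by 59 coding genes (0.27%). Among the 2429 coding genes of 100 kb or longer, whose windows are wide as that of Notch2 is, it was reached by 10 (0.412%). At least 4 nearest peaks were held by 16 coding genes (0.0731%), Notch2 among them. The span, the pair limit and the counts of 5 and 4 were taken from Notch2 itself. Notch2 met each of them by construction, so these shares describe the peak list and are no test of Notch2.

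**Figure D3:**
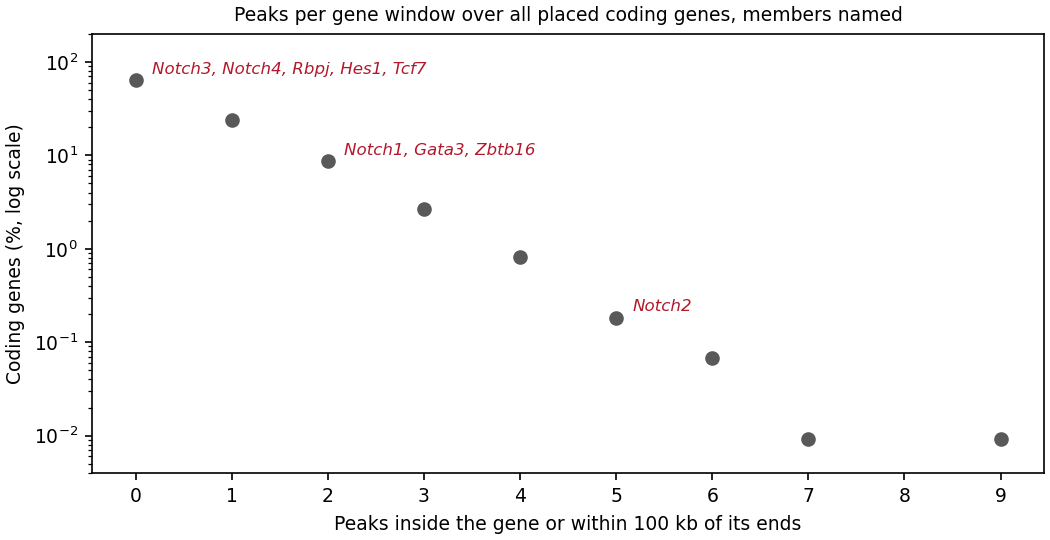
Share of the 21887 placed coding genes (%, log scale) by the number of peaks inside the gene or within 100 kb, with the 9 members named at their count. Notch2 stands at 5 peaks, a count shared by 0.183% of coding genes, while 63.7% of coding genes stand at 0 with Notch3, Notch4, Rbpj, Hes1 and Tcf7.

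Notch1 (chr2:26457902-26503822, 45.9 kb, minus strand), the receptor that starts T cell commitment, had a single peak inside, chr2:26483592-26483991. It was centred 20.03 kb after the transcription start, at 43.6% of the gene's length. The closest annotated noncoding gene was the microRNA gene Mir6996, 13.7 kb away and also inside Notch1. The coding neighbours of this peak outside Notch1 were Sec16a and Egfl7. The second peak counted for Notch1, chr2:26359955-26360354, lay 97.7 kb beyond the gene's downstream end, just within the limit. It was inside Card9, an adaptor gene of innate antifungal signalling. The centre was 0.791 kb from whichever bound of Card9 was nearer, and 0.755 kb from the annotated Card9 start. By position it is a Card9 peak, and Notch1 is then left with 1.

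Notch3 (chr17:32120820-32166896, minus strand), a receptor best known in vascular smooth muscle and also present in thymocytes, had 0 peaks in the window. Its closest peak was 214.8 kb away, with Hsf2bp as the nearest coding gene. Notch4 (chr17:34564286-34588543, plus strand), known mainly from endothelium, had 0 as well. Its closest peak was 126.9 kb away, with BC051142 as the nearest coding gene. The counts at the 4 receptors were thus 2 at Notch1, the farther of them inside Card9, 5 at Notch2 and 0 at Notch3 and Notch4. A count of 0 was shared by 63.7% of coding genes, and the Notch2 window was the widest of the 4, at 336.8 kb. The list gives no heights, so a gene without a peak cannot be told apart from a gene with a signal under the authors' threshold.

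Rbpj (chr5:53555779-53657445, 101.7 kb, plus strand), the DNA-binding factor of the pathway, had 0 peaks, and the closest lay 152.8 kb before its lower end. Hes1 (chr16:30065357-30067796), a bHLH repressor and direct Notch target, had 0, with the closest at 161.7 kb. By gene ends, Hes1 was the nearest coding gene of that peak. Rbpj and Hes1 thus each had a peak between 100 and 200 kb and none nearer.

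Gata3 (chr2:9857078-9887953, 30.9 kb, minus strand) had 2 peaks in the window and 0 inside. The nearer, chr2:9802609-9803008, was centred 54.3 kb beyond the gene's downstream end and 75.8 kb after the annotated transcription start. It lay in the stretch between Celf2 and Gata3, outside all coding genes, and Gata3 was its nearest coding gene. The other, chr2:9971902-9972301, was 84.1 kb from Gata3 on the upstream side and inside Taf3, which encodes a TFIID subunit. A further peak, chr2:9750254-9750653, lay 106.6 kb beyond the downstream end, just past the limit, and Gata3 was also its nearest coding gene. Unlike Notch1, Notch2 and Zbtb16, Gata3 was thus counted only through peaks outside the gene.

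Tcf7 (chr11:52246527-52283383, 36.9 kb, minus strand) had 0 peaks. Its closest peak was 101.7 kb away, just outside the limit, and its nearest coding gene was Vdac1, a mitochondrial channel gene. Peaks stood close to the 100 kb limit on either side, at 97.7 kb for Notch1, 101.7 kb for Tcf7 and 106.6 kb for Gata3. The second peak of Notch1 and the 0 of Tcf7 thus turn on peaks whose nearest coding gene is another gene.

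Zbtb16 (chr9:48651797-48836225, 184.4 kb) held both of its peaks inside the gene, chr9:48814536-48814935 and chr9:48819712-48820111. They were centred 21.5 and 16.3 kb from the upper end, 5.18 kb from each other, at 11.7% and 8.85% of the gene's length counted from that end. No other peak lay within 100 kb, and the next closest was 514.1 kb away. The neighbouring coding genes were Gm32280 and Htr3a. Having 2 or more peaks inside was shared by 5.72% of the 2429 coding genes of 100 kb or longer and by 1.02% of all coding genes. Notch2 met it too.

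The line on which a peak stands in the list, whose order is not explained in the sources used here, ranged from 128 to 3089 for the 11 peaks, with a median of 1294. All 5 peaks inside member genes stood in the first 1576 of the 3153 lines, at lines 128 and 606 for Notch2, 664 for Notch1, and 221 and 1334 for Zbtb16. Both Gata3 peaks stood in the later lines, at 2382 and 3089. The upstream Notch2 peaks were spread, at lines 450, 1728 and 2050. Of all 11 peaks, 7 stood in the first 1576 lines. How many of all peaks inside coding genes stood there was not counted, so nothing is read from these lines.

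The wider pathway was described with 83 genes in 8 roles, the members among them. A peak inside or within 100 kb was found at 42 of the 83 genes (50.6%), against the 36.3% of all coding genes. Without the members it was 38 of 74 (51.4%). The median was 1 peak per gene, compared with 0 over all coding genes. A peak inside the gene was found at 10 of the 83 (12%), against 6.83%. Of the 64 distinct peaks counted, a list gene was the nearest coding gene, with an end within 100 kb, for 16. Most of the others were closer to a gene outside the list. By nearest gene end within 100 kb, 11 of the 83 (13.3%) had a peak, against 10.8% of coding genes.

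**Figure D4:**
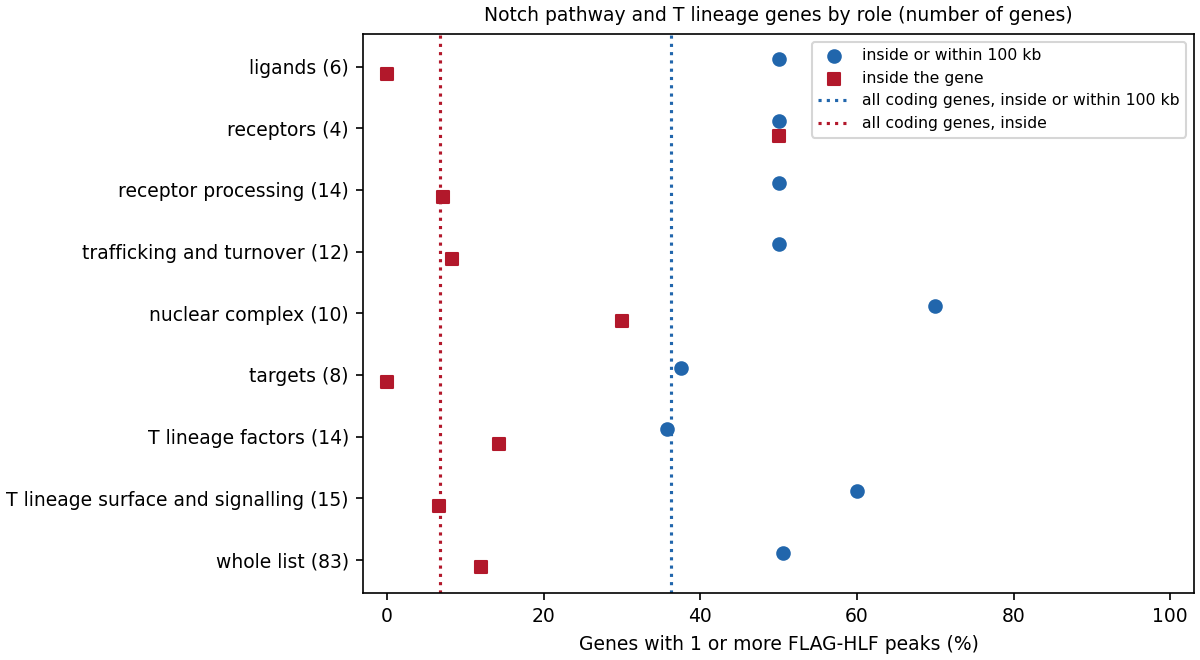
Share of genes with at least 1 peak (%) in each of the 8 roles and in the whole list, with the number of genes in brackets. Blue points count peaks inside or within 100 kb and red squares peaks inside the gene; dotted lines give the same shares over all placed coding genes, 36.3% and 6.83%.

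Of the 6 ligand genes, Dll1, Dll3 and Jag2 had a peak in the window (50%, against 36.3% of all coding genes). None had a peak inside, against 6.83%, and 1 was a nearest gene within 100 kb (16.7%, against 10.8%). Jag2 had the closest, 10.1 kb beyond an end, and another at 74.0 kb. Dll3 had 1 at 29.5 kb, nearer to Eid2. The single peak near Dll1, 19.2 kb away, was centred 0.05 kb from Fam120b and overlapped its promoter window. Dll4, the ligand that thymic epithelium presents to Notch1, had its closest peak 217.0 kb away, and Jag1 had its closest at 367.1 kb.

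Among the 14 genes of receptor processing, 7 had a peak in the window (50%, against 36.3% of all coding genes). A peak inside was found at 1 (7.14%, against 6.83%), and 1 was a nearest gene within 100 kb (7.14%, against 10.8%). Adam17, a protease that cleaves Notch at the cell surface, had 1 inside the gene, 3.21 kb from its start. Adam10, the main protease for ligand-activated Notch, had 2, at 58.4 and 93.6 kb, inside Lipc and Sltm. Of the gamma-secretase genes, Psen2, Aph1a and Aph1b had 1 each at 60.7 to 94.7 kb, each nearer to another gene. Psenen, Ncstn and Aph1c had 0. Pofut1, which puts fucose on Notch, had 4, the nearest 2.27 kb away and all of them inside other coding genes. Mfng, a Fringe glycosyltransferase that tunes ligand choice, had 3 at 36.6 to 72.1 kb, each nearer to another gene.

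In the trafficking and turnover role, 6 of 12 genes had a peak in the window (50%, against 36.3% of all coding genes). A peak inside was found at 1 (8.33%, against 6.83%), and 1 was a nearest gene within 100 kb (8.33%, against 10.8%). Neurl1a, an E3 ligase of ligand endocytosis, had 1 inside, 38.9 kb from an end. The others, Mib1, Mib2, Dtx2, Dtx3 and Dtx4, had 1 each at 21.1 to 92.3 kb, each nearer to another gene. The Mib2 peak, 92.3 kb away, overlapped the promoter window of Nadk, a NAD kinase gene. Numb and Fbxw7, which lower Notch activity, had 0.

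In the nuclear complex, 7 of 10 genes had a peak in the window, against 36.3% of all coding genes, and 3 of 10 had a peak inside, against 6.83%. By nearest gene end within 100 kb, 1 of the 10 (10%) had a peak, against 10.8% of coding genes. The peaks inside Maml2 and Maml3 were nearest to those genes. This count left them out because they lay over 100 kb from any coding gene end. The genes with a peak inside were the coactivator genes Maml2 and Maml3 and the acetyltransferase gene Kat2b, which are long, at 413.0, 418.0 and 105.9 kb; the part of length in these counts was not tested. Maml2 held 2 peaks inside, 147.1 and 168.5 kb from its nearest end. Maml3 held 1 inside, 103.1 kb from an end, and had another at 29.8 kb within Mgst2. Kat2b held 2 inside, 3.51 and 3.06 kb from its annotated starts. Maml1 had 1 peak at 26.3 kb, inside Mgat4b. The acetyltransferase genes Ep300 and Crebbp, with peaks from 46.7 to 98.9 kb, and Snw1, with 1 at 36.4 kb, had none closer. The DNA-binding subunit Rbpj thus had 0 in its window while each of the Mastermind genes had at least 1.

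Of the 8 target genes, 3 had a peak in the window (37.5%, against 36.3% of all coding genes). None had a peak inside, against 6.83%, and 1 was a nearest gene within 100 kb (12.5%, against 10.8%). Nrarp, a feedback inhibitor of Notch, had 3 at 23.3, 45.2 and 69.4 kb. The first was nearest to Nrarp, and the others were nearer to Slc34a3 and Noxa1. Hes5 and Hey1 had 1 each at 82.7 and 95.4 kb, nearer to Mmel1 and Mrps28 respectively. Myc and Ptcra, the pre-T cell receptor alpha gene, had their closest peaks 1658.0 and 414.0 kb away.

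Of the 14 T lineage factors, 5 had a peak in the window (35.7%, against 36.3% of all coding genes), a share near the background. A peak inside was found at 2 (14.3%, against 6.83%), and 3 were a nearest gene within 100 kb (21.4%, against 10.8%). Besides the members Gata3 and Zbtb16, the genes with a peak in the window were Tcf12, Tcf3 and Tbx21. Tcf12 (encoding the E protein HEB) had 1 inside, 21.2 kb from an annotated start. Tcf3 had 1 at 76.6 kb within Onecut3, and Tbx21, the gene of T-bet, 1 at 27.2 kb within Tbkbp1. Bcl11b, the T commitment factor, had its closest peak 761.0 kb away, and Lef1, the relative of Tcf7, had its closest at 1140.8 kb.

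Of the 15 T lineage surface and signalling genes, 9 had a peak in the window (60%, against 36.3% of all coding genes). A peak inside the gene was found at 1 (6.67%, against 6.83%). By nearest gene within 100 kb it was also 1 (6.67%, against 10.8%). Cd3e, Cd3d and Cd3g lie side by side and shared 1 peak, nearest to Atp5l. Cd247, the CD3 zeta gene, had 3 at 28.6 to 98.3 kb, each nearer to Creg1 or Rcsd1. Cd4 had 1 at 10.4 kb, nearer to Lag3. Cd8a, Il2ra and Rag1 had 1 each at 59.1 to 83.5 kb, nearer to Rmnd5a, Pfkfb3 and Prr5l respectively.

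The pathway peaks near Dll1 and Mib2 lay on promoters of neighbouring genes, so their sequence could be read. Both are shown because they are the peaks of the Notch ligand and ligand endocytosis genes whose letters the RefSeq windows cover. The first 249 bases of the peak chr17:15395953-15396352 fall in the Fam120b stretch, and all 250 bases of the Nadk stretch fall in the peak chr4:155562005-155562404. Capitals mark the RBPJ word GTGGGAA, read here on the other strand.
Fam120b, chr17:15395952-15396201, plus strand: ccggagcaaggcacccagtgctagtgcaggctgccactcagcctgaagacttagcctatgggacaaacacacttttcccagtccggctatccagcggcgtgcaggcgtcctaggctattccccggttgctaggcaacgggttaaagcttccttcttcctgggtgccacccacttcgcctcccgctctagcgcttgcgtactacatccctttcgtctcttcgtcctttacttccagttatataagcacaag
Nadk, chr4:155562131-155562380, plus strand: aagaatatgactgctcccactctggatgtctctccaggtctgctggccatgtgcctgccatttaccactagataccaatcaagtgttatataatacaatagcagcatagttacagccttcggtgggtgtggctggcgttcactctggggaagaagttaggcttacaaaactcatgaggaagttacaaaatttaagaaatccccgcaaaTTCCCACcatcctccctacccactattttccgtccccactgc

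The words were searched in all 32851 promoter windows of 300 bases, on both strands. The PAR bZIP words TTACGTAA, TTATGTAA and TTACATAA were in 6.61% of the 227 windows that a peak overlapped (15 windows), and in 1.06% of all windows. The C/EBP words TTGCGCAA, TTGCACAA and TTGCATCA were in 11.9% of the windows under a peak and in 2.07% of all. The RBPJ word was in 6.17% of those under a peak and 6.38% of all. The GATA word AGATAA was in 9.25% under a peak and 11.2% of all, the RUNX word TGTGGT in 16.7% and 16.8%, and the TCF/LEF words CTTTGAA and CTTTGTT in 10.1% and 10.6%. The E-box words CAGCTG and CACGTG were in 24.2% under a peak and 22.2% of all, the AP-1 words TGAGTCA and TGACTCA in 3.52% and 5.2%, and the ETS words ACAGGAA and CCGGAAG in 20.7% and 16.8%. TTATGTAA and TTACATAA are the same word on opposite strands, and so are TGAGTCA and TGACTCA. A word could lie in the part of a window that its peak did not reach, and some genes have overlapping windows.

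The 9 promoter windows of the 7 members with an entry held no PAR bZIP, C/EBP, RBPJ, GATA, RUNX or TCF/LEF word. Gata3 and Tcf7 held an E-box word, that of Gata3 outside the stretch printed above, Notch4 an AP-1 word, and Notch4 and Tcf7 an ETS word. No peak overlapped these windows, so the words say nothing about the 11 peaks, whose own sequence was not used here.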

How the data were processed

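LSK cells were profiled by ChIP-seq against the FLAG tag, with 1 FLAG-HLF and 1 GFP-ctrl library. The authors deposited for FLAG-HLF a list of 3153 peak intervals with 3 columns (chromosome, start, end), each 400 bases wide, and other values such as height or significance are not in its columns. The submitters' processing notes list MACS2, Bowtie2 and bedtools, and mm10 (GRCm38) as genome. Their roles, the threshold, any filter, the use of the control and the step behind the fixed width are not stated there. Read depth is unknown, and a list that was filtered more strictly would hold fewer peaks.

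Peak centres were taken as start + 200 and coordinates count from 1. Genes came from RefSeq GRCm38.p6 (21900 coding, 21887 placed on a chromosome), and all 83 symbols of the pathway list matched. Starts and strands came from RefSeq promoter windows. No genome sequence was used, so the word search planned for the peaks was replaced by a search of promoter windows, chosen after the data were seen, as were the run of 5 peaks and M1ap. Members and lists were chosen with earlier results of these data known. Named genes are the 9 members, the coding genes next to their peaks, and the pathway genes with a peak, while pathway genes named at 0 were picked afterwards. Some pathway genes are counted but not reported here by name. No test was run. Alternatives changed the distance limit, the gene assignment and the lines used. Counting was tested on simulated data. Computations ran in Python 3.11.15 with pandas 2.3.3 and numpy 2.4.6, intervals in scipy 1.17.1 and figures in matplotlib 3.10.9.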

Additional observations from a re-analysis of the deposited data

How the results depend on the processing

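Of 142 alternative values, 111 stayed within 1.5 times the reported count or, for the share of all coding genes, within its 95% exact Clopper-Pearson interval of 35.7 to 37.0%, and 31 moved further. The 11 peaks at the 9 genes were 6 with a limit of 20 kb, 17 at 200 kb and 7 in the first 1576 lines of the list. The 4 genes with a peak became 3 at 20 kb, 3 at 50 kb, 3 in the first 1576 lines and 8 at 200 kb. The 8 peaks with a member as nearest gene were 4 at 20 kb and 5 when noncoding genes also competed for them. At 20 kb Gata3 kept 0 of its 2 peaks, Notch1 1 of 2 and Notch2 3 of 5. The share of all coding genes with a peak was 15.1% at 20 kb, 24.2% at 50 kb, 51.8% at 200 kb and 22.0% in the first 1576 lines. The last of these was chosen after seeing the data. The cause was not tested beyond the construction of each alternative, which admits fewer or more positions. The 5 peaks inside member genes were 5 under both alternatives run for them. The words in the peaks were not searched, so the alternatives for them were not run. No paired analysis was possible because each arm has 1 library and 1 list was used. Depth is unknown, so no detection limit can be given.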
